A study of Mus musculus with 2 samples.

Results

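The genes described here are 28 mouse genes of cholesterol synthesis and its control by the sterol regulatory element-binding proteins (SREBPs). They comprise 19 enzymes from acetyl-CoA to cholesterol (with the branch enzyme Ggps1), 7 genes for SREBPs and their processing, and 2 sterol-responsive effectors. They were listed by name from the pathway and matched through the RefSeq transcript identifier of each array probe. The rule uses no measured value, although the list was drawn up with earlier results of these data known. All 28 were measured, among 14288 genes well above background on both arrays. They had 41 probes, of which 39 were well above background on both arrays. Liver RNA came from male mice given either of 2 adenoviruses, a control virus (Ad-Ctrl) or one labelled as overexpressing miR-378 (Ad-378). Every mouse received 1e9 plaque forming units by tail vein when 8 weeks old, so the controls also carried virus and no uninjected group is described. For each group, livers of 5 mice were pooled and hybridised to 1 array, and the labels do not state the strain or the promoter and precursor of the miRNA. The labels' protocols place collection at 2 weeks in both groups, while the description of the Ad-378 sample says 3 weeks. The title of the study relates miR-378 to bile acid synthesis and cholesterol homeostasis, and the comparison of both pools addresses what differs in liver RNA when the miR-378 virus replaces the control virus.

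Cholesterol is built from acetyl-CoA through mevalonate and isoprenoid pyrophosphates to squalene, which is closed to lanosterol and then trimmed to cholesterol in a long series of oxidations and reductions. SREBPs are made as precursors in the endoplasmic reticulum, where Scap escorts them and Insig proteins hold the complex back when sterols are plentiful. When sterols fall, the complex moves to the Golgi, where the proteases encoded by Mbtps1 and Mbtps2 free the transcription factor. The liver is a main site of this synthesis and of the disposal of cholesterol as bile acids.

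Of 43020 gene spots per array, 63.1% (Ad-Ctrl) and 65.7% (Ad-378) were well above background, and no spot was saturated. Values are given as relative signal, the processed signal of a probe divided by the 75th percentile of the array, and differences are log2 Ad-378 minus Ad-Ctrl. With 1 pool per group there is no spread between replicates, no test was run, and the error beside a value is the scanner error of both spots, which covers the array measurement and not the mice. That error was a median of 10.03% of the signal on each array, or 0.20 log2 units for a difference. Probes printed in 10 spots varied less, with a median SD of 0.062 log2 units in Ad-Ctrl and 0.066 in Ad-378. A relative signal depends on the probe as well as on the RNA, so levels are compared between the pools and not between genes. Hepatocyte markers were present at high signal in both pools, with 9 of 10 measured. Their median difference was 0.15, and it turned to -0.02 under quantile and -0.04 under loess normalization.

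Cholesterol synthesis and SREBP genes were mostly somewhat higher in the Ad-378 pool. Of the 28 genes, 21 had a difference above 0, compared with 53.9% of all genes measured, and the median was 0.34 against 0.04 over all genes. At least 2-fold higher were 4 members, the sterol reductases Hsd17b7 and Tm7sf2, the SREBP-retaining protein gene Insig1 and the sterol carrier gene Stard4, whereas 2.83% of all genes passed this level. No member was 2-fold lower, and 4.52% of all genes were. At 1.5-fold, 9 members were higher against 8.78% of all genes, and 1 member, Mylip, was lower against 12.1%. Beyond the 95% range of the scanner error, 14 members were higher and 1 lower, where 16.3% and 17.7% of all genes were. Srebf2 counts among the 14, and among the 21 above 0, by the probe used (0.55), while its other probe gave -0.54. Insig2 and Srebf1 lay only just beyond the range, with lower ends at 0.011 and 0.036. The direction was not shared by every gene, since 7 members lay below 0, of which 6 lay inside that range.

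**Figure D1:**
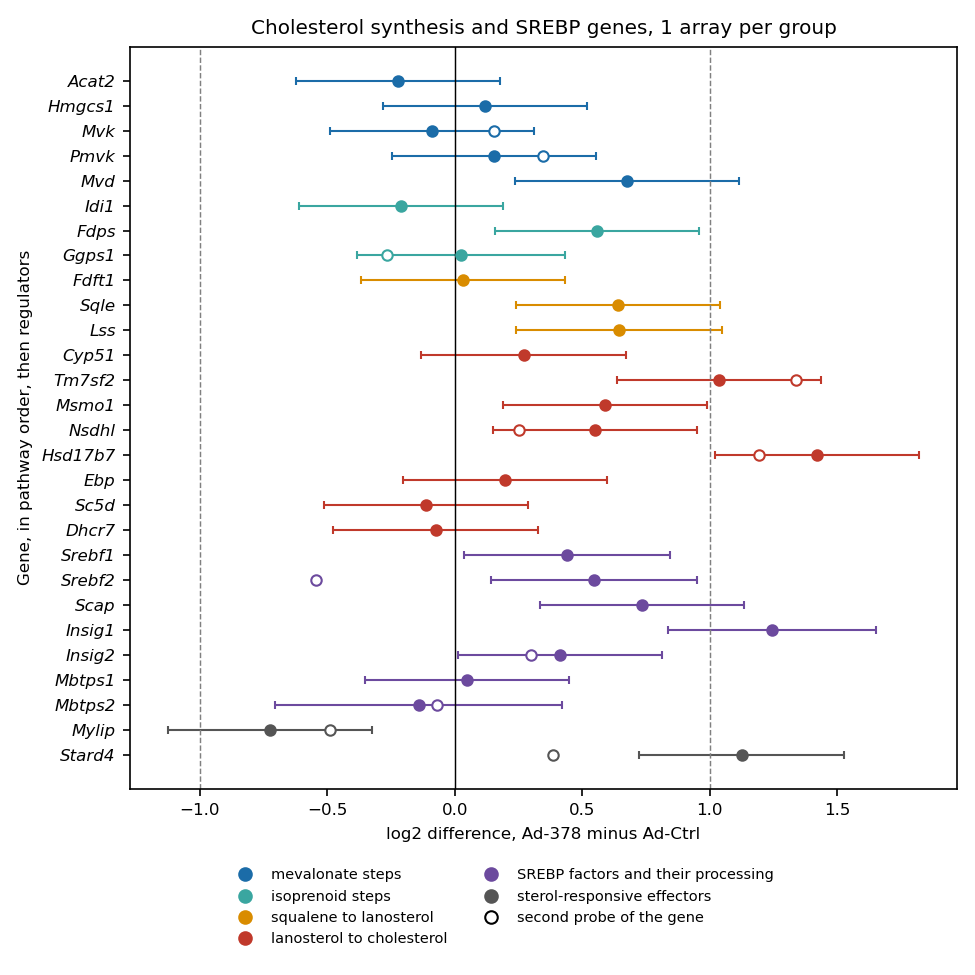
The x axis is the log2 difference (Ad-378 minus Ad-Ctrl) and the y axis lists the 28 genes in pathway order followed by the regulators. Filled points are the probe used, bars are the 95% range of the scanner error, open points are the second probe where it was well above background, and dashed lines mark 2-fold. Hsd17b7, Insig1, Stard4 and Tm7sf2 lie beyond the line on the right, Mylip lies furthest left, and the probes of Srebf2 lie on opposite sides of 0.

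**Figure D2:**
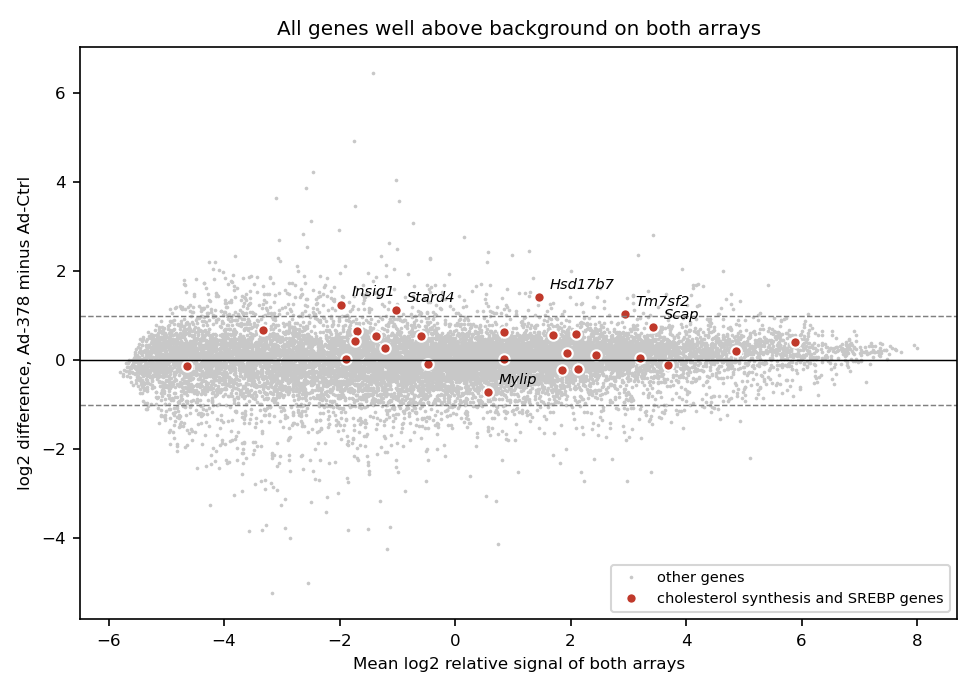
The x axis is the mean log2 relative signal of both arrays and the y axis the log2 difference (Ad-378 minus Ad-Ctrl), with 1 point per gene for 14288 genes. The 28 cholesterol synthesis and SREBP genes (red) span dim to bright signals, and most lie slightly above 0 within the spread of the other genes.

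The start of transcription is shown for the 3 genes at least 2-fold higher that had a RefSeq promoter window, and for Hmgcs1, the one gene with a sterol element in it. RefSeq windows (build GRCm38.p6, 250 bases before to 50 after the start) were matched for 24 of the 28 genes. 3 motifs were searched on both strands, the sterol element TCACNCCAC, the CCAAT box CCAAT and the Sp1 box GGGCGG, and no match in a member's windows overlapped a match of another motif. The sterol element was found in 1 of 24 members and in 1.39% of the 11404 measured genes with a window. The CCAAT box was found in 20 of 24 members and in 42.5% of those genes, and the Sp1 box in 21 members and in 62.2%. Over all 32851 windows, 1.24% held the sterol element, 37.4% the CCAAT box and 35.7% the Sp1 box. A match is a description of the letters and not a measured site. The windows lie at chr1:169969156-169969455 on the minus strand (Hsd17b7), chr5:28071162-28071461 on the plus strand (Insig1), chr19:6067801-6068100 on the minus strand (Tm7sf2) and chr13:119690101-119690400 on the plus strand (Hmgcs1). Capitals mark the CCAAT box, which reads ATTGG where it lies on the opposite strand, and in Hmgcs1 also the sterol element, and each sequence runs 5′ to 3′ along the gene.
Hsd17b7: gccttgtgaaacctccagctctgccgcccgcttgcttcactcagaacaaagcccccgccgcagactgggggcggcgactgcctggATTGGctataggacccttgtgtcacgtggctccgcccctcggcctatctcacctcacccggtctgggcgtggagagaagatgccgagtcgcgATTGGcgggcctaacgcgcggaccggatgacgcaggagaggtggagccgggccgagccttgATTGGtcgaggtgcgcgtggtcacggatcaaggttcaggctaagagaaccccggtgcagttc
Insig1: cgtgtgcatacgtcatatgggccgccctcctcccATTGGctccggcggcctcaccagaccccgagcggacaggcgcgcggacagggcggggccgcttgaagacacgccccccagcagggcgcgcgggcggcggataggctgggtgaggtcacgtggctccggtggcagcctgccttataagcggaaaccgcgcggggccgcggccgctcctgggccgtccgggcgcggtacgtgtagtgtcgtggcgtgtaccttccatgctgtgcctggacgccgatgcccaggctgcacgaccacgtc
Tm7sf2: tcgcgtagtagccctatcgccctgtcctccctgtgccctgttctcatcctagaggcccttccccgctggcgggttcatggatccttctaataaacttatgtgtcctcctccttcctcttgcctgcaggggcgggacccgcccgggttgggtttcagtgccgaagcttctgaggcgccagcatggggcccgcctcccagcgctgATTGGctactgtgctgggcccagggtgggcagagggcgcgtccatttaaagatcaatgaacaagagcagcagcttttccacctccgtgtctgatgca
Hmgcs1: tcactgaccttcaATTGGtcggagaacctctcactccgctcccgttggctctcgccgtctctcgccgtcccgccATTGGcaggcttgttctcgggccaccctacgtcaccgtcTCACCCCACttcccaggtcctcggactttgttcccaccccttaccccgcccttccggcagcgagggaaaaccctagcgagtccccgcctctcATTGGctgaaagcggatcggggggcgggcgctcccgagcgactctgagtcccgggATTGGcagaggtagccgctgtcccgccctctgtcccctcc

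Every CCAAT box in these 4 windows was in the inverted orientation. Hsd17b7 had 3 of them, with first bases at -165, -73 and -12 from the start, Insig1 had 1 at -216, Tm7sf2 had 1 at -47 and Hmgcs1 had 4. The sterol element of Hmgcs1 began at -137, on the strand of the gene. Hmgcs1 itself differed little between the pools, as given below, and the other 3 genes shown held no match to the searched sterol element in this window.

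The mevalonate steps differed little between the pools except for Mvd, with a median difference of 0.12 over 5 genes. Acat2, the cytosolic thiolase that joins acetyl-CoA units, had a relative signal of 3.88 in the control pool and 3.33 in Ad-378, a difference of -0.22. Hmgcs1, the cytosolic HMG-CoA synthase, had 5.23 in Ad-Ctrl and 5.67 in Ad-378, a difference of 0.12. The kinase gene Mvk had 0.746 and 0.702 (-0.09), with a second probe at 0.15, and the next kinase gene, Pmvk, had 3.65 and 4.07 (0.15), with a second probe at 0.35. These 4 genes lay inside the 95% range of the scanner error. Mvd, the decarboxylase that yields isopentenyl pyrophosphate, was 1.60-fold higher in Ad-378, with 0.0785 in Ad-Ctrl and 0.125 in Ad-378. Mvd was dim, at a processed signal of 62.8 in the control pool, and its difference of 0.68 was 0.42 on the deposited series matrix values.

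Among the isoprenoid steps, Fdps alone lay outside that range. Idi1, the isomerase of isopentenyl pyrophosphate, had a relative signal of 4.72 in the control pool and 4.08 in Ad-378, a difference of -0.21. Fdps, the farnesyl pyrophosphate synthase, had 2.66 and 3.92, a difference of 0.56. Ggps1, which takes farnesyl pyrophosphate toward protein prenylation and away from sterols, had 0.268 and 0.272 (0.02), and its second probe gave -0.27.

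Among the 19 enzymes, 6 were at least 1.5-fold higher, and 5 of these act from squalene synthase on. Fdft1, the squalene synthase and first committed sterol enzyme, had a relative signal of 1.79 in the control pool and 1.83 in Ad-378, a difference of 0.03. Its second probe was not well above background on either array. Sqle, the squalene epoxidase, was 1.56-fold higher, with 1.44 in Ad-Ctrl and 2.25 in Ad-378. Lss, the lanosterol synthase that closes the sterol rings, was also 1.56-fold higher, with 0.247 and 0.386. Both Sqle (0.64) and Lss (0.65) lay beyond that range while Fdft1, the step before them, did not.

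Between lanosterol and cholesterol, the middle enzymes stood higher in Ad-378 and the last ones did not. Cyp51, the lanosterol demethylase, had a relative signal of 0.392 in the control pool and 0.473 in Ad-378, a difference of 0.27. Tm7sf2, a sterol reductase that acts on the product of Cyp51, was 2.05-fold higher, with 5.34 and 10.9, and its second probe gave 1.34. Msmo1, the methylsterol oxidase, had 3.46 and 5.21, a difference of 0.59 that lay almost on the 1.5-fold level.

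Nsdhl, the decarboxylating sterol dehydrogenase that acts with Msmo1, had a relative signal of 0.548 in the control pool and 0.802 in Ad-378, a difference of 0.55, and its dimmer probe gave 0.25. Hsd17b7, the keto reductase that completes each round of demethylation, was 2.68-fold higher, with 1.68 in Ad-Ctrl and 4.50 in Ad-378. Hsd17b7 had the largest difference of the 28 genes (1.42), its second probe gave 1.19, and 98.8% of all genes measured lay below it. Ebp, the sterol isomerase, had 27.1 and 31.1 (0.20), Sc5d, the sterol desaturase, 13.4 and 12.5 (-0.11), and Dhcr7, the reductase of the last step, 0.730 and 0.693 (-0.08). These last 3 enzymes lay inside the 95% range of the scanner error. Taking the role groups together, the 8 enzymes before squalene synthase, with the branch enzyme Ggps1 among them, had a median of 0.07. That median was just below 0 with series matrix values (-0.0071) and normexp (-0.0061). The 11 enzymes from squalene synthase on had a median of 0.55. Of these groups, 2 and 6 genes respectively were higher beyond the 95% range of the scanner error. This division was drawn with the values known and was not tested.

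**Figure D3:**
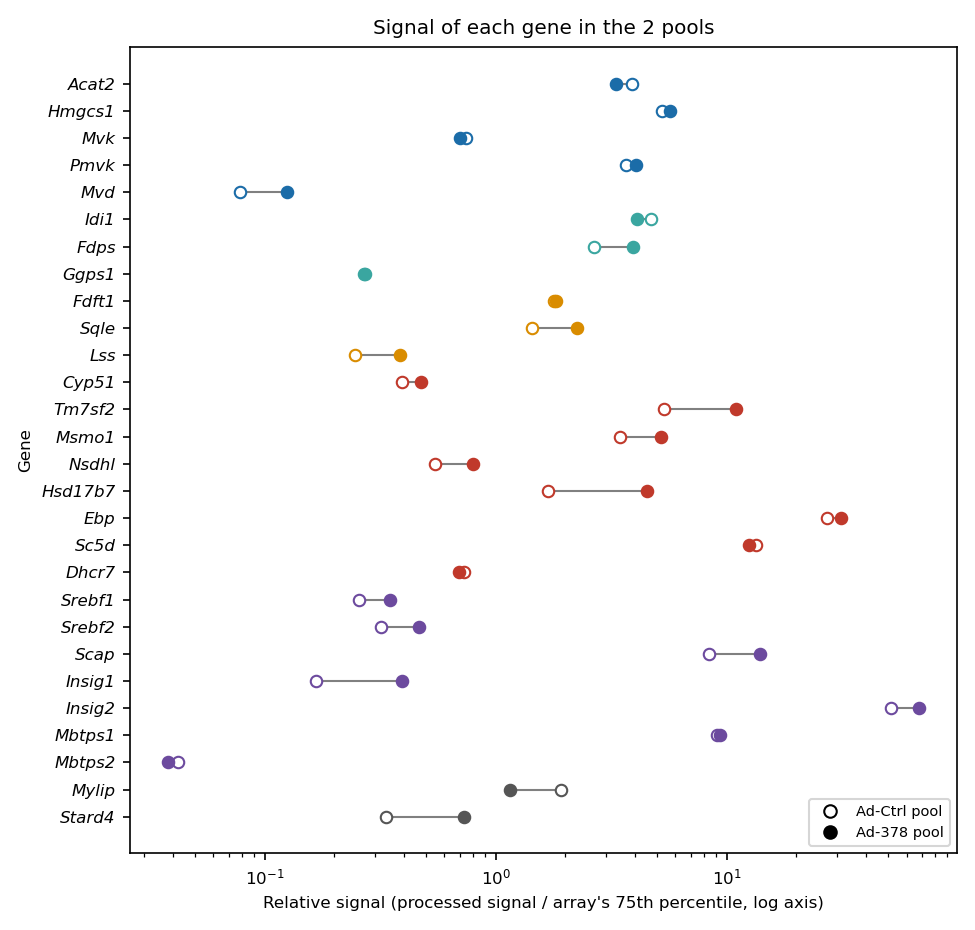
The x axis is the relative signal on a log scale and the y axis lists the 28 genes, with open points for the Ad-Ctrl pool and filled points for the Ad-378 pool. The gap between points is widest for Hsd17b7 (1.68 and 4.50), and Mylip is the gene whose filled point lies furthest to the left of its open point. Positions along the x axis are not comparable between genes.

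Insig1, Insig2, Scap and Srebf1 were higher in Ad-378 beyond the 95% range of the scanner error, the protease genes lay inside it, and the probes of Srebf2 were opposed. Insig1, which retains the Scap complex and is itself a target of SREBPs, was 2.37-fold higher, with a relative signal of 0.166 in the control pool and 0.393 in Ad-378. Insig1 had 1 probe, at a processed signal of 133 in Ad-Ctrl, and its difference of 1.24 was 1.01 with the series matrix values and 0.93 with normexp background correction. Insig2, the second retention protein, had 51.3 and 68.2 (0.41), and its other probe gave 0.30. The difference of Insig2 was 0.22 under both quantile and loess normalization. Scap, the escort of the precursors, was 1.66-fold higher, with 8.37 in Ad-Ctrl and 13.9 in Ad-378.

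Srebf1, whose product mainly drives fatty acid synthesis in liver, had a relative signal of 0.257 in the control pool and 0.349 in Ad-378, a difference of 0.44. Srebf2, whose product mainly drives cholesterol synthesis, gave opposite answers by probe. The probe used had 0.320 in Ad-Ctrl and 0.467 in Ad-378 (0.55), and the other, for the same transcript, 0.355 and 0.244 (-0.54). The mean over both probes was 0.0011, so no direction can be given for Srebf2. Srebf2 was the one member with probes over 1 log2 unit apart, among 11 members with 2 probes well above background on both arrays. Of those 11, 3 had probes of opposite sign (27.3%), as did 27.2% of the 3419 genes with 2 or more such probes. The protease gene Mbtps1 had 9.05 and 9.37 (0.05) and Mbtps2 0.0420 and 0.0381 (-0.14), and the sign of each changed with the processing.

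The 2 sterol-responsive effectors stood on opposite sides. Mylip encodes a ubiquitin ligase that marks lipoprotein receptors for degradation and is induced by the oxysterol receptor LXR. Mylip was 1.65-fold lower in Ad-378, with a relative signal of 1.92 in the control pool and 1.16 in Ad-378, and its second probe also lay below 0 (-0.49). Stard4, which carries cholesterol between membranes and is a target of SREBPs, was 2.18-fold higher, with 0.335 and 0.730. The other probe of Stard4 was dim, with 0.0457 and 0.0596, and gave 0.38, so its 2-fold difference rests on 1 probe.

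Which genes passed 2-fold depended on the processing. Hsd17b7 passed under all 7 alternatives, with values from 1.31 to 1.42, whereas Insig1 passed under 6, Stard4 under 4 and Tm7sf2 under 2. For every member, the setting without a background filter repeated the main value, so a pass there adds nothing. The mean over probes likewise repeated it for members with 1 probe above background, such as Insig1. Tm7sf2 lay near the threshold throughout, between 0.92 and 1.19. Leaving aside the use of the second probe, the sign of 23 of the 28 genes was the same under the 7 alternatives, although Srebf2 dropped to 0.0011 with the mean over probes, and the other 5 (Mvk, Ggps1, Fdft1, Mbtps1 and Mbtps2) had differences near 0. The median of the members ran from 0.25 to 0.34.

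**Figure D4:**
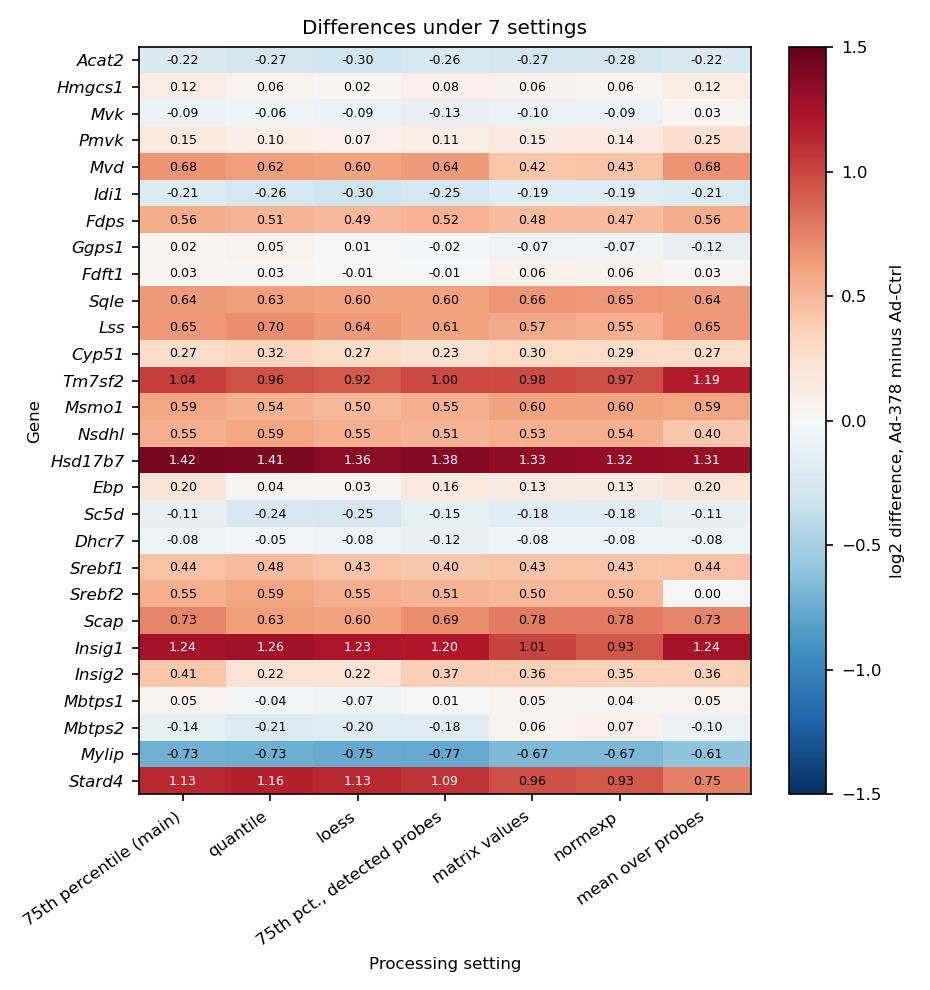
Rows are the 28 genes, columns are 7 processing settings, and colour and number give the log2 difference (Ad-378 minus Ad-Ctrl). Hsd17b7 keeps a value of at least 1.31 in every column, and Srebf2 falls to 0.00 where its probes are averaged.

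Other genes around the pathway were read from lists that are not members. Of 10 other genes of the enzymes and acetyl-CoA supply, 0 were 2-fold apart and the median was 0.22. Among them the sterol enzyme scaffold gene Erg28 had a relative signal of 4.22 in the control pool and 6.44 in Ad-378, a difference of 0.61. Of 14 measured genes of sterol-accelerated degradation and SREBP trafficking, 0 were 2-fold apart and the median was 0.36. There the coat protein gene Sec23a (0.62) and the small GTPase gene Sar1b (0.62), which form transport vesicles, lay furthest above 0 and Spring1 (-0.54), which supports cleavage of SREBPs, furthest below. Of 11 genes of lipoprotein uptake and intracellular cholesterol, 0 were 2-fold apart and the median was 0.07, with the lysosomal sterol carrier gene Npc2 at -0.44 and Gramd1c at 0.44.

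Lipogenic genes mostly lay below 0, and the branches that leave the pathway were mixed. The median of 13 genes of the non-sterol isoprenoid branches was 0.12. Of these, 1 was 2-fold lower and none higher, against 4.52% and 2.83% of all genes. That gene was Zmpste24, the protease that trims farnesylated proteins, with a relative signal of 14.3 in the control pool and 4.89 in Ad-378, a difference of -1.54. In the same list Pdss2 (0.63), of ubiquinone side chain synthesis, and Rabggta (0.60), of Rab prenylation, lay furthest above 0. Of 9 lipogenic targets of SREBP-1c, 7 lay below 0, none was 2-fold higher, and the median was -0.34. The desaturase gene Scd1 differed by -0.61 and the acetyl-CoA carboxylase gene Acaca by -0.39, while Srebf1 itself had 0.44.

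**Figure D5:**
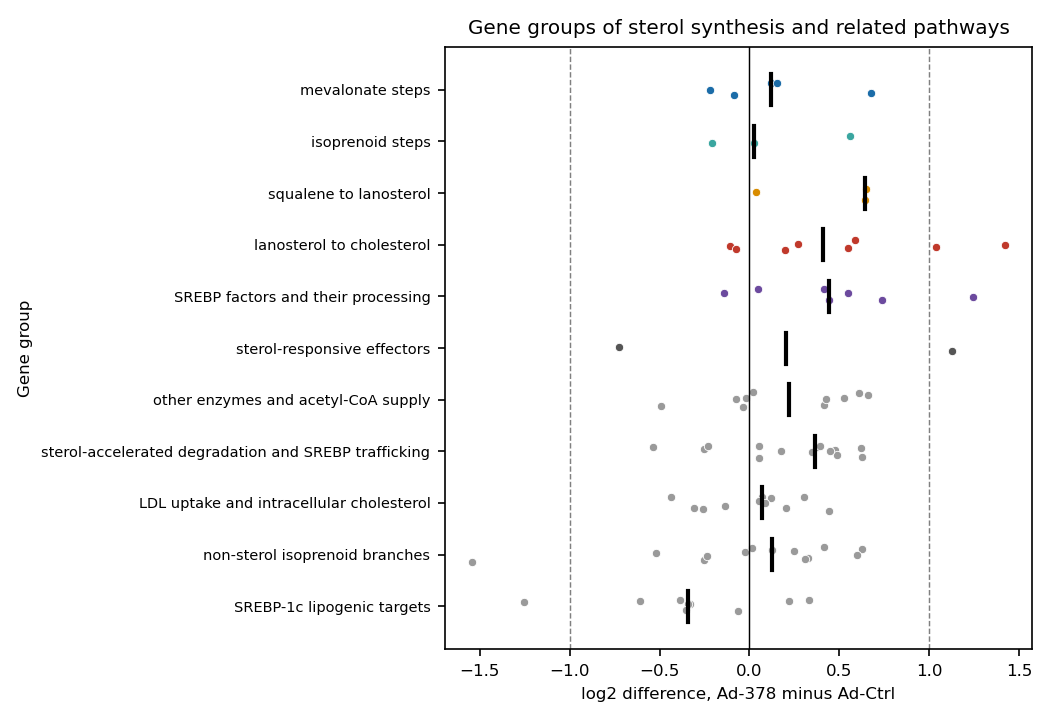
The x axis is the log2 difference (Ad-378 minus Ad-Ctrl) and the y axis lists the 6 role groups of the 28 genes (coloured) and 5 lists of other pathway genes (grey). Each point is 1 gene with vertical scatter for visibility only, black bars are medians and dashed lines mark 2-fold. The medians of the squalene to lanosterol (0.64) and SREBP (0.44) groups lie furthest right and that of the lipogenic targets (-0.34) furthest left.

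Markers of other liver cells differed between the pools as well. The summed relative signal of the 7 measured of 8 Kupffer cell and macrophage markers was 97.7 in Ad-Ctrl and 50.8 in Ad-378. By the probe used all 7 lay below 0, and Cd5l (-1.12) and Adgre1 (-1.04) were 2-fold lower. Timd4 (-0.13) was dim, with 0.0259 in Ad-Ctrl and 0.0237 in Ad-378, and turned to 0.036 with normexp. Csf1r differed by -0.88 by the probe used and by -0.41 as the mean over its 3 probes. The summed relative signal of the 6 measured of 7 stellate cell and fibroblast markers was 71.3 and 36.8, with all 6 below 0. Most of this drop came from Col3a1 (20.2 and 3.09, a difference of -2.71) and Col1a1 (14.3 and 3.05, -2.22). Lum differed by -1.94, Reln by -0.46, Dcn by -0.20 and Lrat by -0.01. The summed relative signal of the 9 hepatocyte markers was 1067 and 1165. Of these markers 6 lay above 0 and 3 below, from Hnf4a at -0.16 to Serpina1a at 0.22 and Ahsg at 0.28. The sums were 49.6 and 41.5 for 6 of 7 sinusoidal endothelial markers, 7.86 and 6.94 for 5 of 6 T and NK cell markers, 0.281 and 0.406 for 3 of 4 B cell markers and 3.52 and 8.14 for 4 of 5 cholangiocyte markers. Of the endothelial markers 5 lay below 0, with Lyve1 at -0.74 and Pecam1 at -0.34, and 1 above, Kdr at 0.24. Of the T and NK cell markers 3 lay below 0, with Gzma at -1.33 and Cd8a at -1.14, while Cd3e and Nkg7 were each at 0.02. The second probe of Nkg7 gave -0.97, so no direction can be given for it. All 3 B cell markers were dim and above 0, with Ms4a1 at 1.17. The cholangiocyte sum was mostly Spp1, at 2.93 and 7.19, and the differences ran from Krt19 at -0.36 to Sox9 at 0.78 and Spp1 at 1.29. In pooled tissue, fewer cells of a type and less RNA per cell cannot be told apart, and the part of cell composition in the differences of the sterol genes was not tested.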

How the data were processed

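Liver RNA of 2 pools was measured on 1-colour Agilent arrays, 1 per pool. Per the file headers and labels, the authors' scanner files hold processed intensities from which background and a spatial trend were removed on each array, unscaled between arrays. Agilent Feature Extraction is given as version 9.1 in the submitters' processing notes and as 11.0.1.1 in the headers. The deposited flags (background, saturation, outliers) are other values, 0 or 1. The deposited series matrix intensities equal the raw median signal in 100% of spots, so scale and direction are known, and the column medians were 103 for Ad-Ctrl and 95 for Ad-378. The labels' extraction text describes a blood RNA kit with globin removal, although the tissue is liver.

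Control spots were dropped, as were 123 outlier gene spots on each array. Processed signals were divided by the 75th percentile over gene probes (800 for Ad-Ctrl, 695 for Ad-378) before log2. Probes were named through a RefSeq table of GRCm38.p6 (27219 of 39401 probes, 20652 symbols). The headers name build mm9, so no probe coordinates are given. Where several probes of a gene were well above background on both arrays, the brightest was used. The error of a difference combines the deposited errors of both spots. Members counted at 1.5-fold and 2-fold stand beside the share of all 14288 genes. With 1 pool per group there is no test.

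The members and lists were chosen with earlier results of these data known. All members are named, and of each other list the 3 largest differences and all 2-fold genes, with the 2 largest of each marker list. The markers Hnf4a, Timd4, Csf1r, Kdr, Cd3e, Nkg7, Krt19, Lum, Reln, Dcn and Lrat were picked with their values in view. Some genes that this rule names are not reported here. Alternatives were quantile and loess (span 0.3) normalization, the percentile over detected probes, the mean over probes, matrix values, normexp (offset 50) and no background filter. The steps were tested on simulated data. Python 3.11.15, numpy 2.4.6, pandas 2.3.3, statsmodels 0.14.6, matplotlib 3.10.9, R 4.3.3 and limma 3.58.1 were used.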

Additional observations from a re-analysis of the deposited data

Results flagged for a closer look

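The second probe of Mbtps1 entered no gene value. Only on the Ad-378 array did it pass the background criterion, with processed signals of 24.8 there and 13.3 on the Ad-Ctrl array, and a log2 difference of 1.104. The brighter probe of the same transcript differed by 0.05.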

How the results depend on the processing

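No paired analysis was possible because there is 1 pool, and so 1 replicate number, in each group, and for the same reason no replicate could be left out. The count of 4 members at least 2-fold higher was 2 with the series matrix values and 1 with normexp, and 9 at 1.5-fold and 0 at 3-fold. The share of all genes at least 2-fold higher fell as well, from 2.83% to 1.55% with the series matrix values and 1.39% with normexp. Members lower numbered 0 at 2-fold and 1 at 1.5-fold. The cause of the smaller counts was not tested. Of 207 member values under the alternatives, 204 stayed within the 95% range of the scanner error. The exceptions were Srebf2 with the mean over probes (0.0011) and at its second probe (-0.54) and Stard4 at its second probe (0.38). Part of the 204 could not move, because values without the background filter equalled the main ones. So did the mean over probes of members with 1 probe above background. The members' median ran from 0.25 to 0.34 and kept its sign. The median of all genes ran from -0.026 under loess to 0.062 after normexp, and relative to it the members' main median was 0.30. The median of the lipogenic targets moved to -0.15 after normexp. The planned normexp fit was not run as written, since 1 spot of the Ad-Ctrl array with a local background of 6305 distorted it. Instead, spots marked as background outliers took the array's median background. That setting, the second probe and the reference to all genes were chosen after seeing the data. The number of arrays, 1 per group, limits the precision, and Mbtps2, at a signal of 33.6 and 26.5, is the member nearest to background.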
